A study of Arabidopsis thaliana with 11 samples.

Results

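Genes of auxin transport and response were followed in stigmas, ovaries and whole seedlings of Arabidopsis thaliana. They were chosen by gene symbol: every probe set annotated with a single gene whose symbol is IAA, ARF, SAUR or PIN plus a number, or begins with GH3. This gave 11 of the 13513 probe sets that name a single gene, out of 22746 in all. There were 7 Aux/IAA genes (IAA18, IAA20, IAA29, IAA30, IAA31, IAA33 and IAA34) and 4 GH3 genes (GH3.1, GH3.3, GH3.9 and GH3.17). No symbol of the ARF, SAUR or PIN form was matched, so those families are not analysed here. The annotation used leaves 8730 probe sets unnamed, so genes without a named probe set may still be on the array. WES1, which RefSeq also lists as GH3.5, falls outside the symbol rule and is given beside the GH3 genes for that reason. Of 17 other symbols looked up for genes of these families, only WES1 had a named probe set.

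RNA of accession Landsberg erecta, which carries the erecta mutation in every group, was hybridised to 11 Affymetrix ATH1 arrays, 1 RNA sample on each. The 3 stigma and 4 ovary samples came from pistils of buds that had been emasculated at stage 8 and were taken 1 day later; stigma and ovary were parted by cutting, so the border of the stigma piece is that of the cut. The descriptive text of the stigma samples repeats that of the ovary samples and names ovary tissue; their titles say stigma, and the groups follow the titles. The 4 seedling samples were whole seedlings, roots included, grown for 10 days on Murashige and Skoog plates. No label says whether samples of a tissue came from separate plantings, so the p-values reflect only how far samples of a tissue lay apart, some of which may be technical.

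Auxin acts by letting TIR1/AFB receptors bind Aux/IAA proteins, which are then degraded. Aux/IAA proteins otherwise hold back the ARF transcription factors that switch auxin-responsive genes on or off. GH3 enzymes join acyl acids such as auxin to amino acids, which lowers free auxin, and many Aux/IAA and GH3 genes are themselves switched on by auxin. In the pistil, auxin is known for its part in forming the style and stigma at the tip.

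Values are linear signals in the authors' scale, with standard deviations over arrays after ±. Differences are of log2(signal + 17.2), where 17.2 is the 10th percentile of all values, and carry the standard error (SE) of a limma fit over all 11 arrays; they understate changes of dim transcripts. A probe set was tested if it passed a signal of 144.2 on at least 3 arrays. It was called if limma's Benjamini-Hochberg adjusted p over the 15524 tested probe sets was under 0.05 and the difference at least 2-fold. In bulk samples, fewer cells of a type and less RNA per cell cannot be told apart. The 3 comparisons share samples: each tissue enters 2 of them.

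The tissue labels were checked against markers. AT3G12000 (SLR1) and AT2G33850, stigma genes, summed to 25440.1 to 31882.2 in stigma, 213.3 to 5792.6 in ovary and 288.4 to 681.8 in seedling. The highest ovary sum was that of ovary 1, with 1832.3 for AT3G12000 and 3960.3 for AT2G33850. Ovaries 2 to 4 had 124.0 to 316.4 and 79.2 to 94.6 for these genes. INO, an ovule gene, had 136.9 to 247.4 in stigma, 515.9 to 605.1 in ovary and 110.3 to 272.4 in seedling. SWEET9, listed with it but known from nectaries, had 143.4 to 183.1, 4565.2 to 7490.8 and 61.3 to 146.3 in the same order. Whether the ovary samples held nectary tissue was not tested. Root and leaf markers were highest in seedling. Arrays were scanned in 4 periods, called runs: A (stigma 1, ovary 1 and 2), B (stigma 2 and 3, ovary 3 and 4), C (seedling 1 and 2) and D (seedling 3 and 4). Seedlings shared no run with stigma or ovary, so tissue and scan run cannot be told apart in any difference from seedling. The arrays came from 3 chip lots. Lot 1 (stigma 1, ovary 1 and 2, seedling 1) and lot 2 (stigma 2 and 3, ovary 3 and 4, seedling 2) held every tissue, while lot 3 held seedlings 3 and 4. The log2 ratio of 3' to 5' control signal is a measure of RNA quality. For GAPDH it was 1.09 to 2.27 in stigma, 0.70 to 1.11 in ovary and 0.25 to 0.55 in seedling. For actin it was 2.41 to 4.14, 1.70 to 3.03 and 1.46 to 2.49 in the same order, with overlap between tissues. Both were highest in stigma 1, and their mean is the ratio used as a covariate below. That mean was 1.77 to 3.20 in stigma, 1.20 to 2.07 in ovary and 0.85 to 1.48 in seedling. Stigma and seedling did not overlap, so adjusting for it cannot separate RNA quality from tissue between them.

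The 4 GH3 genes differed from one another in direction. GH3.1 and GH3.9 were higher in stigma than in ovary and seedling. GH3.17 was lower in stigma than in both, and GH3.3 was higher in seedling than in either part of the pistil. Between stigma and ovary, 2 of the 11 genes were called higher (GH3.1 and GH3.9) and 1 lower (GH3.17); over all tested probe sets 6.27% were called higher and 9.51% lower. Between stigma and seedling the counts were 2 higher and 2 lower, against 11% and 15.1% of all tested probe sets. Between ovary and seedling they were 0 higher and 2 lower, against 11.1% and 11.7%. Only 5 of the 11 genes were tested, namely the 4 GH3 genes and IAA18. Of these, GH3.1 passed the filter only through its 3 stigma arrays and GH3.3 only through its 4 seedling arrays, so these counts do not describe the families as a whole. With all 22746 probe sets tested and no filter, the 11 genes gave 2 higher and 1 lower between stigma and ovary (4.95% and 7.17% of all probe sets). They gave 2 higher and 3 lower between stigma and seedling (8.78% and 12.1%), and 0 higher and 3 lower between ovary and seedling (8.56% and 9.77%); the added gene was IAA29.

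GH3.1 (AT2G14960), which encodes an amido synthetase of the auxin-conjugating type, had signals of 176.6, 535.4 and 416.3 in stigmas 1 to 3, against 49.7, 14.8, 26.6 and 16.8 in ovaries 1 to 4. In seedlings 1 to 4 it had 57.2, 66.7, 43.1 and 10.1. Every stigma array stood above every other array, with stigma 1 the lowest of them, and ovary and seedling overlapped. The mean was 376 ± 183 in stigma (n = 3), 27.0 ± 16.0 in ovary and 44.3 ± 24.8 in seedling (n = 4 each). The stigma was higher than the ovary by 3.09 (SE 0.46, limma adjusted p = 0.000187) and higher than the seedling by 2.67 (SE 0.46, adjusted p = 0.000305). The ovary did not differ from the seedling beyond the spread (−0.42, 95% interval −1.34 to 0.49, limma adjusted p = 0.426). With no filter the same differences had limma adjusted p = 0.000211 and 0.000326. All ovary and seedling signals lay under the filter, and those under 17.2 occurred on 2 ovary arrays and 1 seedling array, so the size of the difference depends on the offset.

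Between stigma and ovary GH3.1 differed by 2.07 within run A and by 3.66 within run B, both called, by 3.53 without stigma 1, and by 1.92 with a larger offset. Run A holds 1 stigma array, whose spread is taken from the other groups in every fit within that run; within chip lots the same is true of the lone stigma of lot 1 and the lone seedling of each lot. The difference between the runs was not called (−1.60, limma adjusted p = 0.399). Against seedling it was 1.38 within chip lot 1, where it was not called (limma adjusted p = 0.168) with 1 array a tissue, and 2.54 within chip lot 2. With the 3' to 5' ratio as a covariate the stigma was higher by 3.89 than the ovary and by 3.76 than the seedling. The ratio did not overlap between stigma and seedling, so the second value cannot separate RNA quality from tissue. The summed signal of 5 pollen markers (ANX1, ANX2, AT59, ACT12 and MGH3) also was higher in stigma, at 142.5 to 361.5, against 67.0 to 121.0 in ovary and 45.0 to 92.5 in seedling. Of the 5, AT59 was above ovary and seedling without overlap, with 82.8 to 128.5 in stigma, 7.1 to 56.4 in ovary and 5.2 to 9.1 in seedling. ANX2 had 40.7 to 153.7 in stigma, 9.8 to 40.8 in ovary and 19.9 to 38.7 in seedling, above seedling alone without overlap. ACT12, ANX1 and MGH3 overlapped in all 3 comparisons, and ANX1 stayed under 17.2 on every array. The part of pollen RNA in the GH3 differences was not tested.

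GH3.9 (AT2G47750), known from work on primary root growth, had 267.0, 423.4 and 394.6 in stigmas 1 to 3, against 104.8, 176.5, 172.8 and 164.9 in ovaries 1 to 4. In seedlings 1 to 4 the signals were 98.8, 99.3, 131.9 and 98.6. Stigma arrays did not overlap those of ovary or seedling, while ovary 1 lay among the seedlings. Means were 362 ± 83.2 in stigma (n = 3), 155 ± 33.6 in ovary and 107 ± 16.5 in seedling (n = 4 each). GH3.9 was higher in stigma than in ovary by 1.14 (SE 0.23, limma adjusted p = 0.00164) and higher than in seedling by 1.59 (SE 0.23, adjusted p = 6.2e-05). Ovary and seedling were not told apart (0.45, 95% interval 0.00 to 0.90, limma adjusted p = 0.0868). The call between stigma and ovary lies near 2-fold: it was not made without ovary 1 (0.98), with a larger offset (0.88) or within run A (0.89, limma adjusted p = 0.0638), and it was made within run B (1.20).

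GH3.17 (AT1G28130), whose enzyme conjugates auxin to glutamate, ran the other way. Signals were 88.0, 110.5 and 108.8 in stigmas 1 to 3, against 318.3, 284.4, 256.9 and 262.4 in ovaries 1 to 4. Seedlings 1 to 4 had 446.0, 381.8, 804.4 and 974.8. The tissues formed 3 ranges with no overlap, stigma the lowest and seedling the highest. Means were 102 ± 12.5 in stigma (n = 3), 280.5 ± 27.9 in ovary and 652 ± 285 in seedling (n = 4 each). GH3.17 was lower in stigma than in ovary, with a difference of −1.32 (SE 0.27, limma adjusted p = 0.00221), and lower than in seedling, with −2.39 (SE 0.27, adjusted p = 9.1e-06). Within runs A and B the stigma differed from the ovary by −1.60, with a lone stigma array, and by −1.13, and both were called; with the larger offset the difference was −0.94, short of 2-fold.

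The difference of GH3.17 between ovary and seedling was −1.07 (SE 0.25, limma adjusted p = 0.00317), and it rested on the seedlings of run D. Without seedlings 3 and 4 it was −0.53 (limma adjusted p = 0.0346), short of 2-fold, as it was with chip lot as a block. The call also ended without seedling 3 alone (−0.94), without seedling 4 alone (−0.85) and with the larger offset (−0.92). Between stigma and seedling the call held without both seedlings of run D and within each chip lot, with −2.14 in lot 1 (1 array a tissue) and −1.65 in lot 2 (2 stigmas, 1 seedling); the spread of lone arrays is taken from other groups.

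GH3.3 (AT2G23170), an auxin-induced amido synthetase gene, had 82.8, 16.1 and 113.2 in stigmas 1 to 3, and 110.3, 121.5, 33.0 and 23.3 in ovaries 1 to 4, against 286.7, 221.6, 282.5 and 579.8 in seedlings 1 to 4. Among ovaries the arrays of run A lay above those of run B. Every seedling array stood above every pistil array, and stigma and ovary covered much the same range. Means were 70.7 ± 49.7 in stigma (n = 3), 72.0 ± 51.0 in ovary and 343 ± 161 in seedling (n = 4 each). GH3.3 was lower than in seedling, with a difference of −2.16 in stigma (SE 0.53, limma adjusted p = 0.00424) and −2.12 in ovary (SE 0.49, adjusted p = 0.00277). It passed the filter only through the 4 seedling arrays. With no filter the limma adjusted p was 0.00599 for stigma and 0.00394 for ovary. Stigma and ovary were not told apart (−0.03), though the 95% interval of −1.18 to 1.11 leaves room for a 2-fold difference either way. Within single chip lots the call against seedling was made only for ovary in lot 2 (−2.40); it was not made for ovary in lot 1 (−1.19) or for stigma in lot 1 (−1.60) and lot 2 (−1.86).

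**Figure D1:**
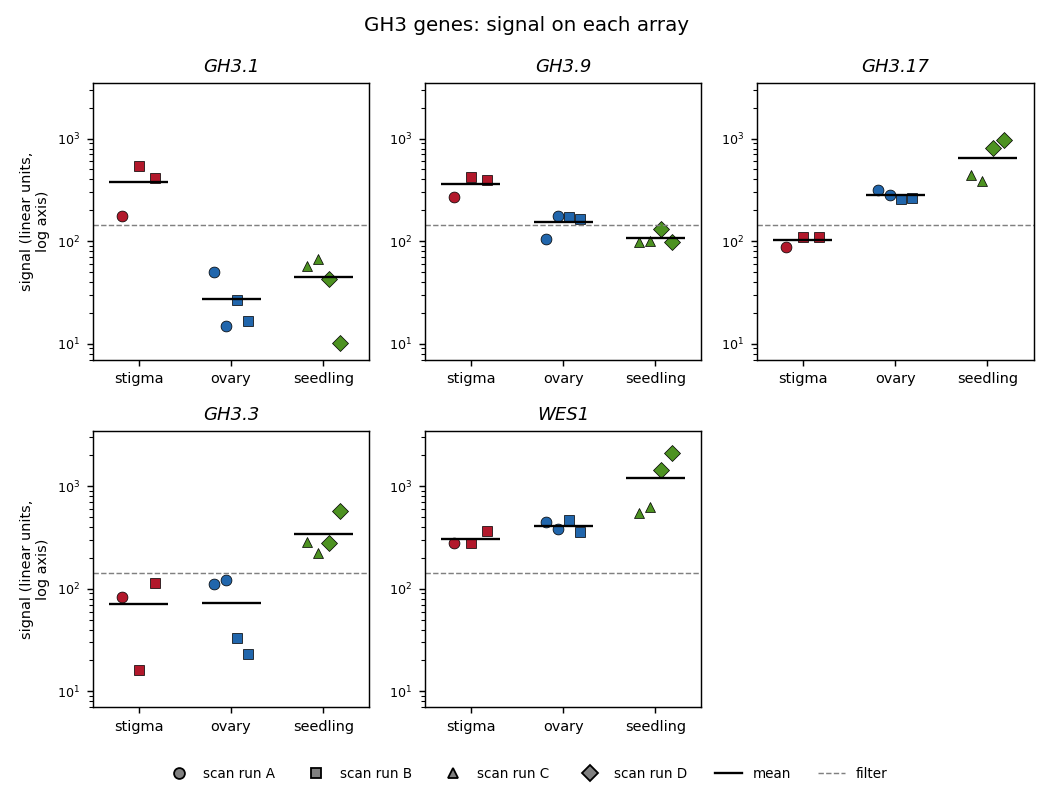
Signal of the 4 GH3 genes and of WES1 (GH3.5) on each of the 11 arrays, on a log axis, with stigma, ovary and seedling from left to right. Point shapes mark the scan run, bars the mean and the dashed line the filter at 144.2. GH3.1 and GH3.9 are highest on the stigma arrays, GH3.17 is lowest there, and GH3.3 is highest on the seedling arrays.

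WES1 (AT4G27260), whose enzyme conjugates auxin and salicylic acid, resembled GH3.17 in the order of its means. Signals were 276.9, 278.9 and 366.9 in stigmas 1 to 3 and 449.7, 384.3, 466.5 and 355.3 in ovaries 1 to 4. Seedlings 1 to 4 had 546.8, 634.2, 1452.2 and 2135.0, so the seedlings of run D stood well above those of run C. WES1 was lower than in seedling, with a difference of −1.69 in stigma (SE 0.37, limma adjusted p = 0.00191) and −1.28 in ovary (SE 0.34, adjusted p = 0.00692). Without the seedlings of run D these differences were −0.91 and −0.50, and neither reached 2-fold. Stigma and ovary were not told apart (−0.41, 95% interval −1.21 to 0.38).

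IAA18 (AT1G51950) is an Aux/IAA repressor known from embryo and root patterning. Among the 7 Aux/IAA genes named here, it was the only gene bright enough to be tested. It had 380.6, 435.6 and 390.8 in stigmas 1 to 3, against 523.6, 649.2, 661.8 and 644.1 in ovaries 1 to 4. Seedlings 1 to 4 had 673.7, 572.8, 872.2 and 1312.5. Stigma lay below both other tissues with no overlap, while ovary and seedling overlapped. Means were 402 ± 29.3 in stigma (n = 3), 620 ± 64.5 in ovary and 858 ± 328 in seedling (n = 4 each).

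IAA18 in stigma differed from seedling by −0.99 (SE 0.23, limma adjusted p = 0.00267), just short of 2-fold, so it was not called. It was called under 7 alternatives, with values of −1.22 to −1.01. These were a smaller offset, equal medians, run as a random block, the RNA quality ratio, and leaving out stigma 2, seedling 1 or seedling 2. Neither run nor the ratio overlapped between stigma and seedling, so those settings cannot separate either from tissue. With chip lot as a block the difference was −0.62 and not called. The difference between stigma and ovary was −0.60 (SE 0.23, limma adjusted p = 0.0574), with −0.59 in run A and −0.64 in run B. Ovary and seedling were not told apart (−0.39, 95% interval −0.85 to 0.06), and with chip lot as a block the difference was −0.01.

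**Figure D2:**
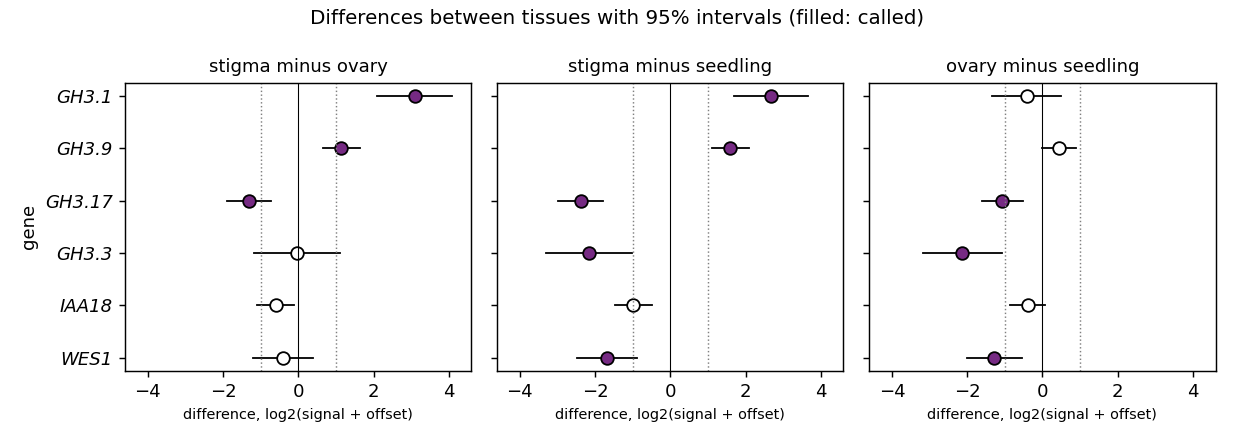
Differences of log2(signal + offset) for the 5 tested genes and WES1 in the 3 comparisons, with 95% intervals of the limma fit; filled points were called, and dotted lines mark 2-fold. Of the GH3 genes, GH3.1 and GH3.9 lie to the right of 0 and GH3.17 to the left in both comparisons of the stigma.

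The other 6 Aux/IAA genes named here were too dim to be tested. IAA29 (AT4G32280), known to be induced by shade and warmth, came nearest. It had 71.8, 27.6 and 34.0 in stigmas 1 to 3 and 45.0, 44.6, 87.3 and 36.8 in ovaries 1 to 4. Seedlings 1 and 2 had 70.4 and 107.2, and seedlings 3 and 4 had 332.8 and 332.2. Only the 2 seedlings of run D passed the filter; those of run C were within or just above the range of the pistil arrays. When all 22746 probe sets were tested, IAA29 was called lower than in seedling in stigma (−1.70, SE 0.48, limma adjusted p = 0.0126) and in ovary (−1.49, SE 0.44, adjusted p = 0.0168). The seedling mean was 332.5 in run D and 88.8 in run C.

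IAA34 (AT1G15050) had 62.5, 90.1 and 118.8 in stigmas 1 to 3, against 43.2, 44.8, 49.7 and 37.3 in ovaries 1 to 4 and 20.1 to 48.9 in seedling. All stigma arrays lay above all others. With no filter the stigma differed from ovary by 0.79 (SE 0.27, limma adjusted p = 0.0489) and from seedling by 0.96 (SE 0.27, adjusted p = 0.0127), under 2-fold in both. IAA34, like IAA20, IAA30 and IAA33, lacks the degron that lets auxin trigger the breakdown of most Aux/IAA proteins, while IAA31 keeps a degenerate form of it.

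IAA30 (AT3G62100) ranged over 42.1 to 52.4 in stigma, 50.6 to 67.3 in ovary and 58.0 to 91.2 in seedling, with stigma below seedling without overlap. IAA31 (AT3G17600) ranged over 22.3 to 67.9 in stigma, 55.8 to 117.1 in ovary and 20.7 to 95.6 in seedling. IAA33 (AT5G57420) ranged over 47.3 to 115.5, 39.3 to 93.4 and 68.5 to 91.1 in the same order. IAA20 (AT2G46990) ranged over 11.7 to 61.5, 11.5 to 78.2 and 11.4 to 55.8. The tissues overlapped for these last 3 genes, and none of these 4 was called in any comparison when all probe sets were tested. At such signals the arrays cannot tell a low level from background, since no detection calls were used.

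**Figure D3:**
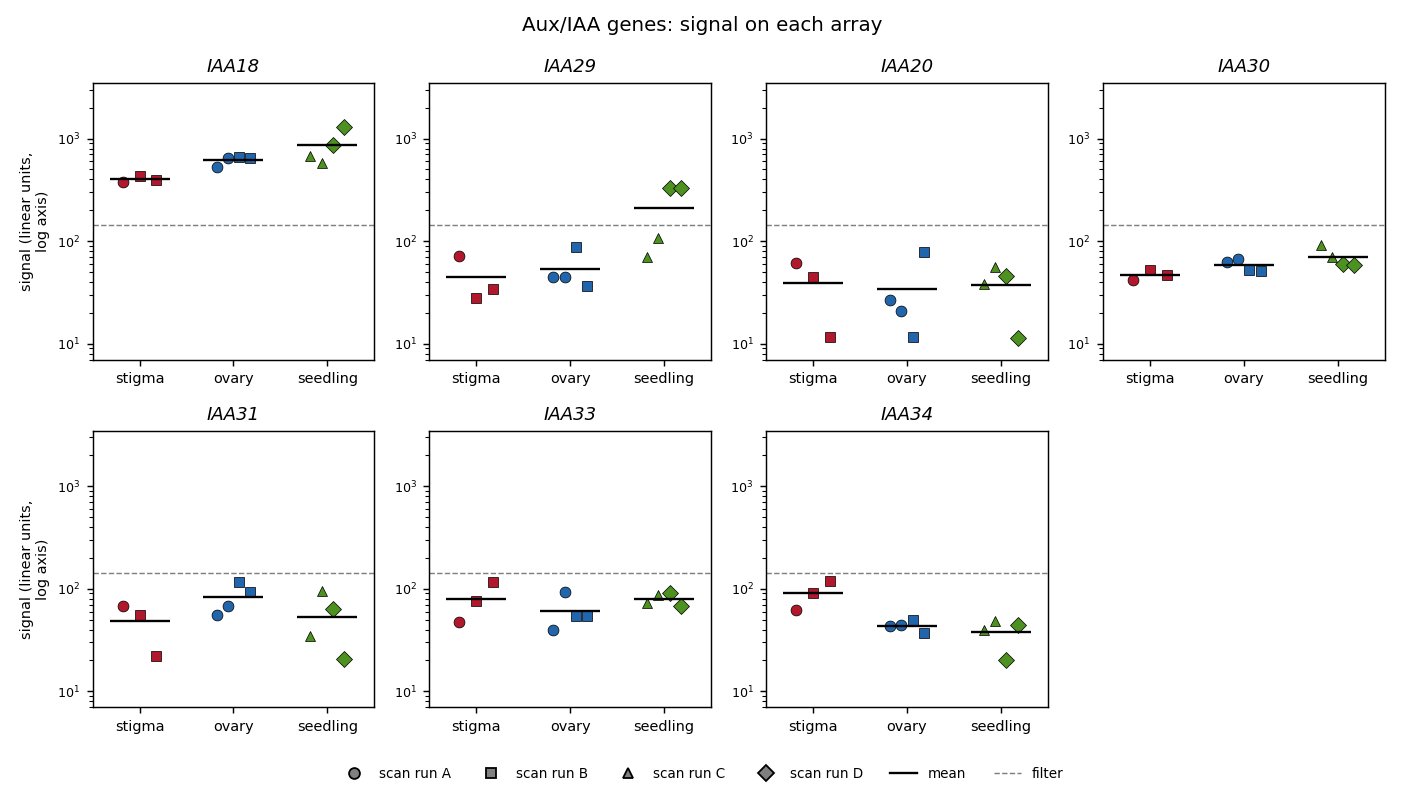
Signal of the 7 Aux/IAA genes on each of the 11 arrays, on a log axis, with stigma, ovary and seedling from left to right. Shapes mark the scan run, bars the mean and the dashed line the filter at 144.2. IAA18 alone lies above the filter on every array, and IAA29 passes it on the 2 seedling arrays of run D.

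Taking all 11 genes with no filter, the median difference was −0.03 between stigma and ovary, −0.06 between stigma and seedling and −0.36 between ovary and seedling, against 0.00, 0.05 and 0.05 over all 22746 probe sets. Stigma and ovary arrays did not overlap for 3 genes higher in stigma and 2 lower, where 14.7% and 20% of all probe sets did so. Against seedling, 3 genes were higher in stigma without overlap and 4 lower (22.1% and 19.3% of all probe sets). In ovary, 0 were higher and 2 lower without overlap (21.6% and 15.2%). Seedlings of run D lay above those of run C for 3 genes (IAA18, IAA29 and GH3.17) and below for 2 (IAA30 and GH3.1). Over all probe sets 25.0% lay above and 27.1% below, so the split of the seedlings by run was about as frequent over the array as among these genes.

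Few other genes of the auxin pathway were named by the annotation used, which is a limit of the annotation and not a count of what the array holds. Listed were 111 symbols for genes of perception, transport, inactivation, synthesis other than the YUC genes, and response, some naming the same gene. Of these, 10 had a named probe set and 7 were tested. Between stigma and ovary, 1 of 7 was called higher and 1 lower, where 6.27% and 9.51% of all tested probe sets were. Between stigma and seedling, 2 were called higher and 2 lower (11% and 15.1% of all), and between ovary and seedling 1 higher and 1 lower (11.1% and 11.7%). With no filter, 10 were tested, and PID2 was added to those called lower in both comparisons of the stigma. These are counts of 1 to 3 genes, and nothing is read from them about the pathway.

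WAG2 (AT3G14370), an AGC kinase gene whose product phosphorylates PIN auxin efflux carriers, had the widest gap of the 7. Its signals were 543.7, 630.0 and 605.5 in stigmas 1 to 3, against 62.0, 44.9, 65.4 and 77.5 in ovaries 1 to 4. Seedlings 1 to 4 had 72.0, 73.2, 120.6 and 79.8. It passed the filter only through the stigma arrays, all of which lay far above the rest. WAG2 was higher in stigma by 2.95 than in ovary (SE 0.22, limma adjusted p = 8.9e-07) and by 2.58 than in seedling (SE 0.22, adjusted p = 6.5e-07). With no filter the limma adjusted p was 1.7e-06 and 1.3e-06.

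PID2 (AT2G26700), a kinase gene related to PINOID, was under the filter on all but 1 array. It had 7.5, 9.0 and 29.5 in stigma, against 87.8 to 161.3 in ovary and 85.9 to 142.0 in seedling, without overlap. With no filter it was called lower in stigma than in ovary (−2.04, SE 0.30, limma adjusted p = 0.00026) and in seedling (−2.10, SE 0.30, adjusted p = 9.5e-05).

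HAT2 (AT5G47370), an auxin-induced homeodomain-leucine zipper gene, had 196.5, 158.4 and 216.2 in stigmas 1 to 3, against 471.3, 495.5, 413.7 and 365.6 in ovaries 1 to 4. Seedlings 1 to 4 had 526.0, 501.6, 854.8 and 1348.0. Its tissue order, stigma below ovary below seedling without overlap, was that of GH3.17. It was lower in stigma than in ovary (−1.13, SE 0.28, limma adjusted p = 0.00738) and in seedling (−1.88, SE 0.28, adjusted p = 0.0001). The first call ended with quantile scaling (−0.98) and with the larger offset (−0.91). Ovary against seedling was short of 2-fold (−0.76, SE 0.26, limma adjusted p = 0.0274). It came to −0.47 without seedling 4 (limma adjusted p = 0.0556) and to −0.24 without the seedlings of run D (adjusted p = 0.304).

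ARL (AT2G44080), an ARGOS relative that promotes cell expansion, was listed among the response genes but is known as induced by brassinosteroid. It had 1707.8, 1360.2 and 1483.9 in stigmas 1 to 3 and 1727.6, 1185.5, 1399.3 and 1347.3 in ovaries 1 to 4. Seedlings 1 to 4 had 371.9, 409.0, 430.1 and 905.6. ARL was higher than in seedling by 1.58 in stigma (SE 0.25, limma adjusted p = 0.000179) and by 1.47 in ovary (SE 0.24, adjusted p = 0.000177). Both parts of the pistil overlapped each other (0.11, 95% interval −0.44 to 0.65).

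UGT74D1 (AT2G31750), whose enzyme glucosylates auxins, had 458.7, 473.4 and 596.5 in stigmas 1 to 3 and 371.8, 607.1, 338.8 and 259.0 in ovaries 1 to 4, against 1072.9, 996.9, 1261.2 and 998.0 in seedlings 1 to 4. It was lower than in seedling, with a difference of −1.06 in stigma (SE 0.23, limma adjusted p = 0.00166) and −1.48 in ovary (SE 0.21, adjusted p = 7.2e-05). The call for stigma lay near 2-fold and ended without stigma 1 (−0.996), without seedling 3 (−0.99), with the larger offset (−0.97), with chip lot as a block (−0.96) and within chip lot 2 (−0.89). Stigma and ovary were not told apart (0.41, 95% interval −0.08 to 0.91).

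The other 3 tested genes were not called in any comparison. LBD16, a lateral root regulator, ranged over 143.9 to 229.0 in stigma, 91.2 to 170.9 in ovary and 188.6 to 263.4 in seedling. PUCHI, an AP2 factor of organ initiation, ranged over 123.0 to 227.5, 94.8 to 187.5 and 120.0 to 156.2 in the same order. SKP2A, an F-box gene of the cell cycle, ranged over 440.0 to 551.0, 503.2 to 836.7 and 661.2 to 920.9. LBD16 was lower in ovary than in seedling (−0.92, SE 0.22, limma adjusted p = 0.00369). SKP2A was lower in stigma than in seedling (−0.57, SE 0.18, limma adjusted p = 0.0198). In both cases the arrays did not overlap, but the difference was short of 2-fold. LBD29 and UGT84B1 stayed under the filter on every array.

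**Figure D4:**
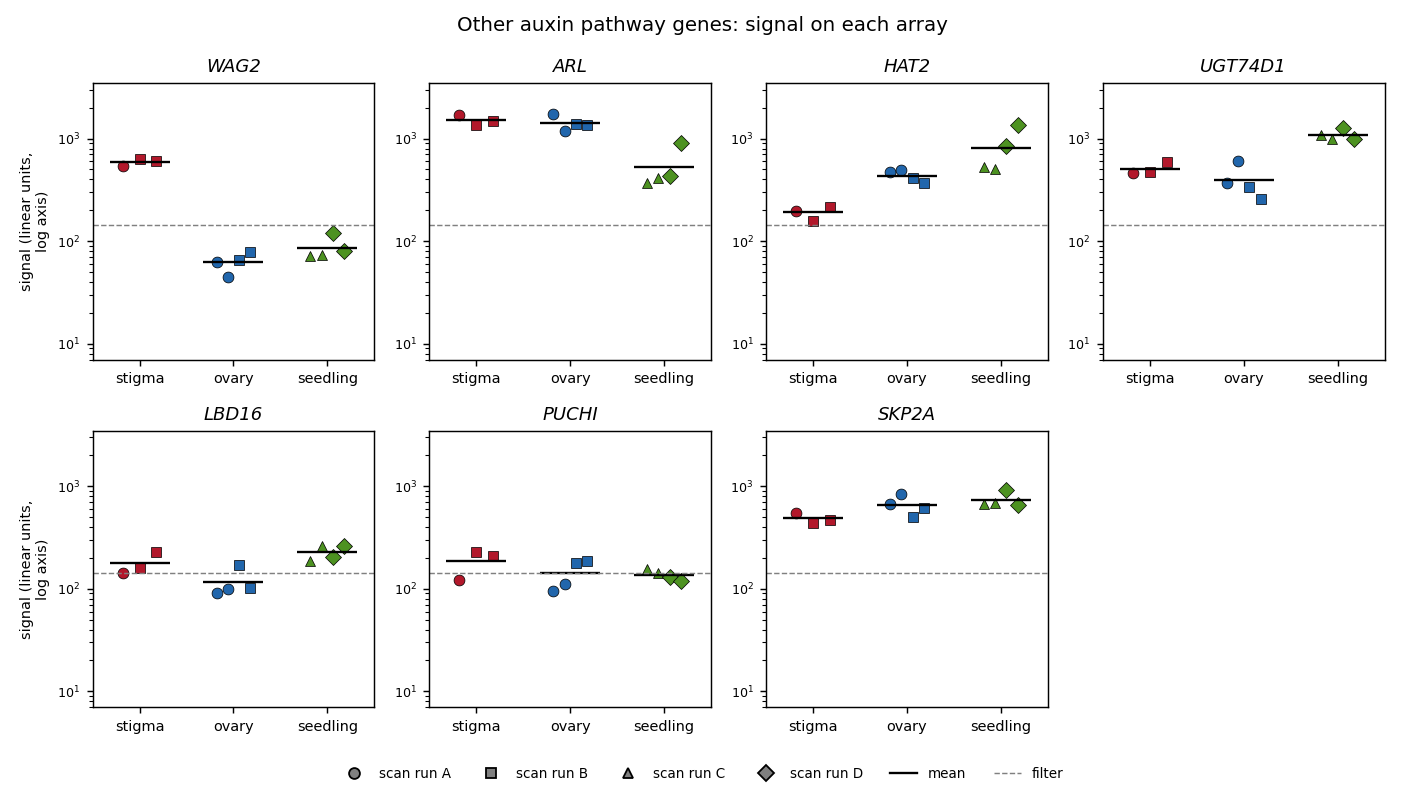
Signal of the 7 tested auxin pathway genes outside the IAA and GH3 families on each of the 11 arrays, on a log axis, with stigma, ovary and seedling from left to right. Shapes mark the scan run, bars the mean and the dashed line the filter at 144.2. WAG2 stands at 543.7 to 630.0 on the stigma arrays and at 44.9 to 120.6 on the others, HAT2 is lowest on the stigma arrays, and ARL is lowest on the seedling arrays.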

How the data were processed

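The deposited table gives linear intensity signals of 22810 probe sets on 11 arrays. The authors had scaled the arrays to a common level, as read from the values: the 2% trimmed mean was 500.0 on each. Which software computed them is not named in any label or header used here, and no detection calls were used. The deposited run information, which has no expression values and counts as another unit (other), gave scan runs and chip lots; scans more than 30 days apart are separate runs. Groups came from the sample titles.

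The 64 control probe sets were left out. Values were taken as log2(signal + 17.2) with no further scaling. The filter kept probe sets above 144.2, the 40th percentile, on at least 3 arrays. One mean per tissue was fitted with limma 3.58.1 (R 4.3.3, trended variances, 8 residual and 5.19 prior degrees of freedom) and tested on simulated data. The number of arrays limits the precision.

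Gene names came from the platform annotation supplied, with locus codes from RefSeq (TAIR10.1). It names a single gene for 13513 probe sets, several for 503, and 8730 are unnamed here; 13436 matched RefSeq. Names of all 11 probe sets end in _at, without the suffixes of shared probes. No sequences or coordinates were used.

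All 11 genes are described. Genes called in at least 1 comparison are given on every array; of the other pathway genes, the called ones are given likewise and the rest by range, with PID2 added after its values were seen. The genes, lists and tests were chosen with earlier results of these data known. Alternatives covered offset, filter, scaling, batch and replicate blocks, RNA quality, left-out arrays and the fold threshold; leaving out both seedlings of run D was added after the values were seen.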

Additional observations from a re-analysis of the deposited data

Results flagged for a closer look

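In 8 of the 38 groups of 4 arrays examined, a single array lay far from the rest by Dixon's criterion, which chance meets in about 1 in 20 groups. Ovary 1 was low for GH3.9 (104.8, with the others at 164.9 to 176.5) and for IAA18 (523.6, with the others at 644.1 to 661.8). Ovary 3 was high for IAA29 (87.3, with the others at 36.8 to 45.0) and for LBD16 (170.9, with the others at 91.2 to 101.2). Seedling 3 was high for GH3.9 (131.9, with the others at 98.6 to 99.3), SKP2A (920.9, with the others at 661.2 to 686.6) and WAG2 (120.6, with the others at 72.0 to 79.8). Seedling 4 was high for ARL (905.6, with the others at 371.9 to 430.1).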

How the results depend on the processing

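Over all alternatives the calls of GH3.1 between stigma and ovary (1.92 to 3.89), GH3.17 between stigma and seedling (−2.63 to −1.65), and GH3.9 between stigma and seedling (1.18 to 1.87) held wherever the gene was tested. Of the 11 genes, 3 were called between stigma and ovary, against 1 with the larger offset (the 30th percentile) and 1 with the stricter filter, under which 2 were tested; leaving out single arrays gave 2 to 3. Between stigma and seedling 4 were called, against 1 with the stricter filter and 2 within chip lot 1 (4 to 5 with single arrays left out). Between ovary and seedling 2 were called, against 1 with the larger offset, the stricter filter, chip lot as a block, within chip lot 2, without the seedlings of run D, and without stigma 1, ovary 1 and seedling 4 together, and 0 within chip lot 1 (1 to 2 with single arrays left out). Of the other pathway genes, 2 were called between stigma and ovary, against 1 with the larger offset or quantile scaling, and 2 between ovary and seedling, against 4 with no fold threshold. Without a fold threshold 5381, 7644 and 8050 of all 15524 tested probe sets passed, in place of 2450, 4053 and 3537. These and the next counts are for stigma against ovary, stigma against seedling and ovary against seedling. With the larger offset 1747, 3161 and 2700 were called, and with the stricter filter 1867, 3128 and 2698 of 11060. With chip lot as a block the counts were 2528, 4156 and 3414. Between ovary and seedling 3409 were called without the seedlings of run D. Quantile scaling gave 2305 between stigma and ovary. The cause was not tested, other than that a larger offset shrinks log2 differences and a stricter filter tests fewer genes.

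Differences that were not called and turned in sign were those of GH3.3 between stigma and ovary (−0.03): 0.065 with equal medians, 0.15 with quantile scaling, 0.16 with run and 0.13 with chip lot as a block, 0.55 within run B or chip lot 2, 0.0070 without stigma 1, ovary 1 and seedling 4 together, and −0.42 to 0.56 with single arrays left out. So did IAA18 between ovary and seedling (0.18 within chip lot 2), ARL between stigma and ovary (−0.070 with the RNA quality ratio) and UGT74D1 between stigma and ovary (−0.050 within run A or chip lot 1). The stigma minus ovary difference changed between runs for 27 of 15524 probe sets, 11 with no filter, and for 0 of the 5 tested genes (limma; GH3.1 alone had an unadjusted p under 0.05, 0.0223). Equal medians put the median of all tested probe sets between ovary and seedling at −0.01 in place of 0.12, and changed the calls of the 11 genes only by adding IAA18 between stigma and seedling. Deviations of same-numbered arrays had correlations of −0.08 to 0.26. The highest were those of stigma 1 with ovary 1 (0.22) and of stigma 3 with ovary 3 (0.26), which share a run. Stigma 2 and ovary 2, of different runs, had −0.03. Numbers are not taken as pairs in the main fit. With the replicate block the counts of the 11 genes called stayed at 3, 4 and 2, and those of all probe sets were 2514, 4039 and 3552.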
